A study of Mus musculus with 3 samples.

Results

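Germline genes are transcribed mainly in germ cells and kept silent in most other tissues, and 10 of them were followed here in mouse embryonic stem cells: Dazl, Ddx4, Sycp1, Sycp3, Mael, Stk31, Asz1, Slc25a31, Hormad1 and Taf7l. They were chosen by symbol as established germline genes, and all 10 were found among the 32285 genes of the deposited tables. The study asked how such cells respond to graded FGF4, a growth factor that signals through FGF receptors and ERK. Single-cell RNA-seq was done on droplet-captured cells (10x Genomics 3′ chemistry), with 1 library for each of 3 FGF4 doses.

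All 3 groups were Fgf4 -/- cells of the mouse embryonic stem cell line E14tg2a, first seeded in stem cell medium with LIF. They were then moved for 24 h to N2B27, a serum-free medium, with the GSK3 inhibitor Chiron and 1 µg/ml heparin. The groups received 0, 5 or 50 ng/ml FGF4, so that the deletion, Chiron and heparin were common to all libraries, the one without FGF4 included. The line cannot make its own FGF4, and no Fgf4 wild-type cells are compared here. No library had a replicate, no test between doses was possible, and "higher" and "lower" describe these 3 libraries only. Every interval is a 95% interval for counting error alone, and cells of 1 library are not replicates of a dose.

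Germline genes serve meiosis, translational control in germ cells and the silencing of transposons by PIWI-interacting RNAs (piRNAs). In somatic lineages many of them carry DNA methylation over CpG-rich promoters. In mouse embryonic stem cells they are also held down by a variant Polycomb complex that contains Pcgf6, L3mbtl2, the E-box binding pair Mga and Max, and the E2F-site binding factor E2f6, and low, patchy transcription of germline genes in these cells is well known.

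The promoters of the 10 genes were read first, because both E-box and E2F-type sequences are recognised by subunits of that complex. RefSeq windows (GRCm38.p6) ran from 250 bases before to 50 bases after each start site, and all 10 genes had one. Stk31 and Hormad1 each had 2 listed windows, of which the first was used. The motifs searched on both strands were the E-box core CACGTG, which reads the same on either strand, and the E2F-type core GCGGGA, which reads TCCCGC on the other strand. The 4 windows shown are that of Mael, the gene furthest above its level without FGF4, that of Sycp3, the gene with the highest level, and those of Dazl and Asz1, in which neither core was found. Each is given 5′ to 3′ on the gene's own strand, with motif matches in capitals.
Mael (chr1:166238695-166238994, minus strand): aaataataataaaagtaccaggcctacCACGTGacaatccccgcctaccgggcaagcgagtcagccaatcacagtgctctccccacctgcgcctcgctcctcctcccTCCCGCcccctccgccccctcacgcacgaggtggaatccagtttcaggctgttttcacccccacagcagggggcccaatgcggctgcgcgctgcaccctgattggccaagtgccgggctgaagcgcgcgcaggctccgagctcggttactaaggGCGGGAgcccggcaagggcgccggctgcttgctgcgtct
Sycp3 (chr10:88459337-88459636, plus strand): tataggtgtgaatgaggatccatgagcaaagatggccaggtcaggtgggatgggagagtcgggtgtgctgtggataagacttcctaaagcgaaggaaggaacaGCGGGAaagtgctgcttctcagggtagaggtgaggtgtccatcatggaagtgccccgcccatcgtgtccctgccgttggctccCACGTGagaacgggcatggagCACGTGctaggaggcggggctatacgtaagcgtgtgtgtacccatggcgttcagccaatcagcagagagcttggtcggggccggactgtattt
Dazl (chr17:50293571-50293870, minus strand): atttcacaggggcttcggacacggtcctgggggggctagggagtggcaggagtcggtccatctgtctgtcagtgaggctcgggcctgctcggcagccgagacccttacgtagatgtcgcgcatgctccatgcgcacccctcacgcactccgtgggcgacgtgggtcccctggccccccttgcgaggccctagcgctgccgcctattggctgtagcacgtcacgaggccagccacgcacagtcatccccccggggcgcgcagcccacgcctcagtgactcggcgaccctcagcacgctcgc
Asz1 (chr6:18109012-18109311, minus strand): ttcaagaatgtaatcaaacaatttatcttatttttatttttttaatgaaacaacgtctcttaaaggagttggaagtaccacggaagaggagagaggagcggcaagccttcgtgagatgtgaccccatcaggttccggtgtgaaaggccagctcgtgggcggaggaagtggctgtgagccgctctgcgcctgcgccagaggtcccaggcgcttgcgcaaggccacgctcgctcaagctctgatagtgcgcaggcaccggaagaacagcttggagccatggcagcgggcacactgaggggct

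The E-box core was present in 8 of the 10 windows, against 1957 of 27025 promoter windows over all genes (7.24%). Sycp3 held it at 2 places, beginning 64 and 43 bases before the start site, and Hormad1 held it at 2 places, beginning 57 and 20 bases before the start site. Ddx4, Sycp1, Mael, Stk31, Slc25a31 and Taf7l held it once each. The E2F-type core was present in 6 of the 10 windows (Ddx4, Sycp1, Sycp3, Mael, Slc25a31 and Hormad1), against 20.02% of all windows, and Mael held it at 2 places. All 6 also held the E-box core, a combination found in 2.05% of all windows, and no 2 matches overlapped.

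In a panel of other germline genes, 52 of which had a window, 11 held the E-box core (21.2%), 40.4% held the E2F-type core and 5.77% held both. The 10 windows were CpG-dense: their median was 23 CpG dinucleotides per 300 bases, against 16 in the panel and 7 over all windows. Their median observed-to-expected CpG ratio was 0.811, against 0.576 in the panel and 0.389 over all windows. Both searched cores contain a CG, and the shares of windows compared above were not matched for CpG density. A motif match is a stretch of letters, not a measured binding site, and the absence of a match says only that these letters are not in this window.

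**Figure D1:**
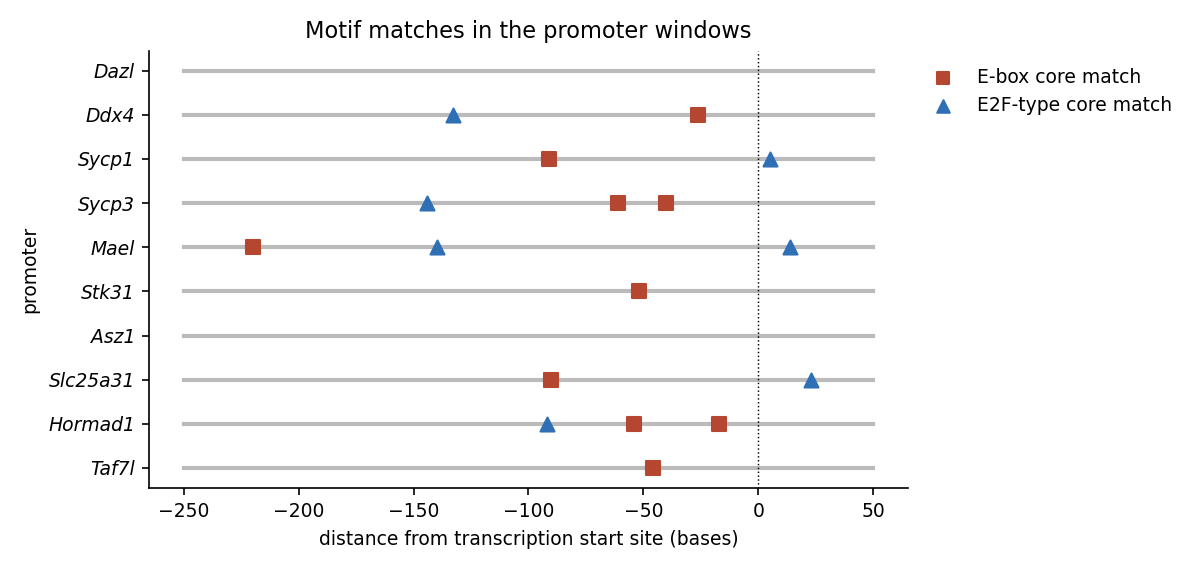
Positions of E-box core matches (red squares) and E2F-type core matches (blue triangles) in the promoter window of each of the 10 genes. The x axis is the distance in bases from the start site (dotted line) on the gene's strand, and the windows of Dazl and Asz1 are empty.

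The libraries held 373, 874 and 975 cells at 0, 5 and 50 ng/ml FGF4, with 42726514, 75184072 and 81409975 UMIs (unique molecular identifiers, each counting 1 captured transcript end). Median depth was 107873, 91763.5 and 87334 UMIs per cell, and 0 cell barcodes were shared by any pair of libraries. The 8 embryonic stem cell markers were all present, summing to 4846, 4498 and 4218 CPM (UMIs scaled to a common library total) at the 3 doses. Of these, Tdgf1 was at least 2-fold higher and Nanog at least 2-fold lower at 50 than at 0 ng/ml. Spermatid markers were scarce, and the 6 genes summed to 0.374, 0.186 and 0.209 CPM, with Prm1 and Tnp1 at 0 UMIs in every library. The 7 oocyte genes summed to 7.89, 16.7 and 20.2 CPM, of which Zp3, a zona pellucida gene, alone made 7.47, 16.3 and 19.6 CPM and was 2.63-fold higher at 50 than at 0 ng/ml. Of 5 Sertoli cell genes, summing to 22.2, 18.1 and 16.6 CPM, Dmrt1, which germ cells also express, made 21.6, 17.6 and 16.3 CPM. The 9 fibroblast genes summed to 74.4, 60.1 and 60.5 CPM, nearly all of it Fbln1 (72.2, 57.4 and 57.4 CPM). Thy1 had 1.19, 2.09 and 2.46 CPM, the collagen gene Col1a1 had 22, 12 and 7 UMIs, and Col3a1 and Postn were at 0 UMIs in every library. The 8 genes of blood, liver, pancreas and heart summed to 2.55, 3.72 and 3.75 CPM, mostly from the heart gene Myh6, with Hbb-bs, Alb, Ins1 and Ins2 at 0 UMIs in every library. The blood gene Hba-a1 had 4 UMIs in each library, and the liver gene Apoa2 had 11, 29 and 23 UMIs. The part of these other lists in the levels below was not tested. Barcodes with over 10% mitochondrial UMIs numbered 12, 133 and 153, and they held 0.233%, 1.34% and 1.79% of the UMIs of the 10 genes.

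As a group the 10 genes were at a similar summed level at all 3 doses. The sum was 110.5 CPM (4723 UMIs) at 0 ng/ml, 117.5 CPM (8837 UMIs) at 5 ng/ml and 110.2 CPM (8973 UMIs) at 50 ng/ml. Giving every cell the same weight, in place of every UMI, put the log2 ratio of the sums at -0.17 for 50 against 0 ng/ml and at -0.10 for 5 against 0 ng/ml. Under that weighting the median log2 ratio over all genes that reached 1 CPM in the higher library also lay below 0. It was -0.099 for 50 against 0 ng/ml and -0.050 for 5 against 0 ng/ml. Within that sum the genes differed in direction: Mael, Taf7l and Hormad1 were higher with FGF4 and Dazl was lower. The value of Taf7l at 5 ng/ml leaned on 1 cell, as given below. UMIs count transcript ends, so the CPM values below are not scaled to transcript length.

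Of the genes of meiotic chromosomes, Sycp3 had the highest level of all 10 genes at every dose. Sycp3 (ENSMUSG00000020059), which encodes a lateral element protein of the synaptonemal complex that joins paired chromosomes, lies at chr10:88459569-88473236 on the plus strand. It had 54.4, 58.2 and 51.4 CPM at 0, 5 and 50 ng/ml (2324, 4379 and 4186 UMIs). Sycp3 was 1.07 times as high at 5 as at 0 ng/ml (1.02 to 1.13) and 0.945 times as high at 50 as at 0 ng/ml (0.898 to 0.995), so the order of the 3 libraries did not follow the dose. With every cell weighted equally the log2 ratio for 5 against 0 ng/ml was -0.051. Its exons overlap those of Chpt1 on the opposite strand, and no source used here states the strand setting of the authors' counting.

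Hormad1 (ENSMUSG00000028109, chr3:95559677-95587671, plus strand) encodes a HORMA-domain protein that coats unpaired meiotic chromosome axes. It had 15.8, 21.2 and 20.7 CPM at 0, 5 and 50 ng/ml. Both libraries with FGF4 were above the one without, at 1.34 times (1.22 to 1.47) for 5 ng/ml and 1.30 times (1.19 to 1.43) for 50 ng/ml. Sycp1 (ENSMUSG00000027855, chr3:102818499-102936100, minus strand), whose protein forms the transverse filaments between the lateral elements, had 4.31, 3.86 and 3.48 CPM. Its ratio for 50 against 0 ng/ml was 0.807 (0.668 to 0.977), while that for 5 against 0 ng/ml, 0.896 (0.742 to 1.08), did not exclude 1. Of the 184 Sycp1 UMIs at 0 ng/ml, 13 came from 1 cell.

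Among the genes of RNA control, Dazl and Mael went opposite ways. Dazl (ENSMUSG00000010592, chr17:50279395-50293636, minus strand) encodes an RNA-binding protein that promotes translation in germ cells. It had 16.2 CPM (694 UMIs) at 0 ng/ml, 8.90 CPM (669 UMIs) at 5 ng/ml and 8.57 CPM (698 UMIs) at 50 ng/ml, so that both libraries with FGF4 lay below the one without. Dazl was 1.89-fold lower at 50 than at 0 ng/ml (1.70 to 2.11), and its ratio for 5 against 0 ng/ml was 0.548 (0.492 to 0.610). A single cell held 80 of the 694 Dazl UMIs at 0 ng/ml. Without the cell with most Dazl UMIs in each library, the log2 ratio was -0.80 for 50 against 0 ng/ml, where it was -0.92 with all cells.

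Mael (ENSMUSG00000040629, chr1:166201201-166238747, minus strand), which acts in piRNA-guided transposon silencing, had 3.84, 7.24 and 8.25 CPM (164, 544 and 672 UMIs). It was 2.15-fold higher at 50 than at 0 ng/ml (1.81 to 2.57) and 1.88 times as high at 5 as at 0 ng/ml (1.58 to 2.26). Between the libraries with FGF4, 50 against 5 ng/ml gave 1.14 (1.02 to 1.28). Ddx4 (ENSMUSG00000021758, chr13:112598333-112652475, minus strand), the germ cell RNA helicase VASA, had 4.99, 5.69 and 5.90 CPM. Its interval for 50 against 0 ng/ml ran from 1.00 to 1.40, and with every cell weighted equally the log2 ratio was -0.015.

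Stk31 (ENSMUSG00000023403, chr6:49395604-49469501, plus strand), a testis gene with Tudor and kinase-like domains, had 7.09, 7.53 and 6.95 CPM. Its ratio for 50 against 0 ng/ml was 0.980 (0.851 to 1.13), which did not exclude 1. Asz1 (ENSMUSG00000010796, chr6:18050964-18109061, minus strand), needed for piRNA production at germ cell mitochondria, was close to silent. It had 10, 10 and 11 UMIs in the 3 libraries (0.234, 0.133 and 0.135 CPM), and its interval for 50 against 0 ng/ml, 0.223 to 1.52, left the direction undetermined at this depth.

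The last 2 genes are germ cell versions of widely used proteins. Taf7l (ENSMUSG00000009596, chrX:134460118-134476490, minus strand), a paralog of the general transcription factor subunit Taf7, had 2.01, 2.81 and 2.91 CPM. It was 1.45 times as high at 50 as at 0 ng/ml (1.13 to 1.87) and 1.39 times as high at 5 as at 0 ng/ml (1.08 to 1.81). The value at 5 ng/ml leaned on 1 cell, which held 32 of the 211 Taf7l UMIs, where the next highest cell held 8. Slc25a31 (ENSMUSG00000069041, chr3:40708855-40726096, plus strand), an ADP/ATP carrier of germ cell mitochondria, had 1.59, 1.94 and 1.93 CPM, with an interval of 0.906 to 1.64 for 50 against 0 ng/ml. The widely used relatives were far more abundant: Taf7 had 170, 159 and 155 CPM, and the carriers Slc25a4 and Slc25a5 had 432 to 709 CPM across the libraries.

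**Figure D2:**
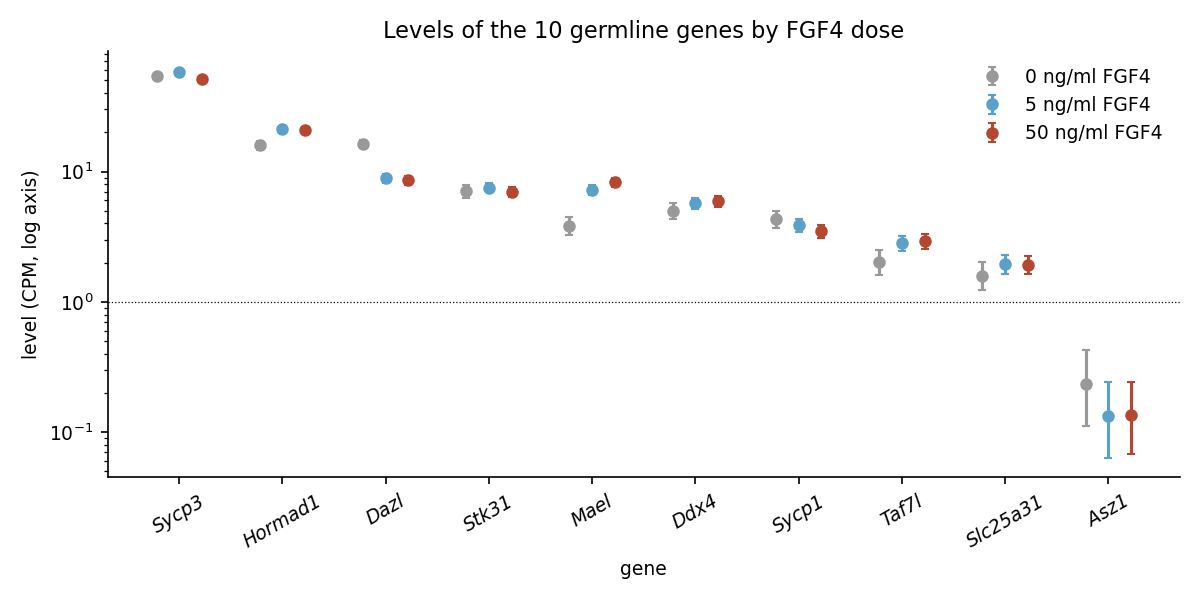
Level of each of the 10 germline genes (CPM, log axis) at 0, 5 and 50 ng/ml FGF4, with 95% Poisson intervals as bars and 1 CPM as a dotted line. Sycp3 is highest at 51.4 to 58.2 CPM, 9 genes exceed 1 CPM at every dose, and Asz1 lies below it.

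In order of level at 50 ng/ml the genes ran Sycp3, Hormad1, Dazl, Mael, Stk31, Ddx4, Sycp1, Taf7l, Slc25a31 and Asz1. The intervals of Dazl (7.95 to 9.23 CPM) and Mael (7.64 to 8.90 CPM) overlapped there, as did those of Stk31 and Ddx4 and those of Sycp1 and Taf7l. At 0 ng/ml Dazl (15.1 to 17.5 CPM) overlapped Hormad1 (14.7 to 17.1 CPM), while Mael (3.27 to 4.47 CPM) lay 7th and overlapped Sycp1 (3.71 to 4.98 CPM). Sycp1 also overlapped Ddx4 there, and Taf7l overlapped Slc25a31. At 5 ng/ml Mael overlapped Stk31. A gene was counted as apart if its ratio was at least 2-fold, its interval excluded 1 and it reached 1 CPM in the higher library. By that rule 9 of the 10 genes were measured and Asz1 was not.

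For 50 against 0 ng/ml, 1 of the 9 genes, Mael, was higher, where 3.86% of the 12612 measured genes were higher. None was lower, where 5.99% of all were lower, and Dazl stayed just inside the limit. With every cell weighted equally the 2 genes changed places: the log2 ratio of Mael was 0.92 and that of Dazl was -1.01. The median over all measured genes was then -0.099. For 5 against 0 ng/ml 0 of the 9 genes were higher or lower, where 3.29% and 4.09% of all measured genes were. For 50 against 5 ng/ml 0 of the 9 were either, where 0.382% of all were higher and 0.39% were lower. The median log2 ratio of the 9 genes was 0.24 for 50 against 0 ng/ml, beside -0.02 over all measured genes. These 2 comparisons with 0 ng/ml share 1 library, so their likeness is not separate evidence.

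**Figure D3:**
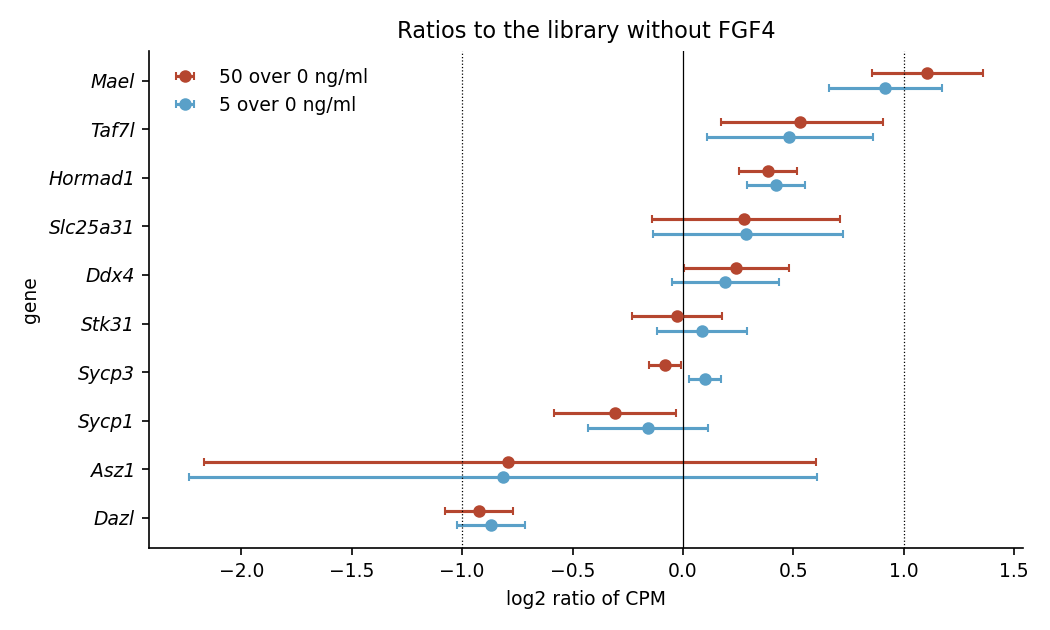
Log2 ratio of CPM over the library without FGF4 for each of the 10 genes, at 50 ng/ml (red) and 5 ng/ml (blue), with 95% counting intervals as bars and 2-fold limits as dotted lines. Mael at 50 ng/ml lies above the upper limit, Dazl lies near the lower one, and both intervals of Asz1 span 0.

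The panel of other germline genes had 64 members in the tables, 40 of them measured for 50 against 0 ng/ml. In it 3 genes were higher, where 3.86% of all measured genes were, and 2 were lower, where 5.99% of all were. The median log2 ratio of the panel was 0.25. The higher ones were Piwil2, a PIWI protein of the piRNA pathway, at 3.39 against 0.96 CPM, Stag3, a meiotic cohesin subunit, at 10.4 against 4.73 CPM, and Tdrd5, a Tudor protein of the same pathway, at 1.47 against 0.73 CPM. The lower ones were Stra8, which drives meiotic entry, at 17.9 against 48.3 CPM, and Rec8, another meiotic cohesin subunit, at 4.42 against 9.74 CPM.

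For 5 against 0 ng/ml 39 panel genes were measured. Of these 3 were higher (Piwil2, Stag3 and the meiotic recombinase Dmc1, at 4.87 against 2.04 CPM), where 3.29% of all measured genes were. In the other direction 1 was lower (Stra8, at 22.4 against 48.3 CPM), where 4.09% of all were. For 50 against 5 ng/ml 0 were higher or lower, where 0.382% and 0.39% of all were. Summed over the 3 libraries, the panel genes with the highest level were Tdrd12 (88.0, 89.9 and 94.5 CPM), Mnd1 (80.7, 76.9 and 75.5 CPM) and Syce2 (61.8, 80.7 and 89.9 CPM). Trip13 (73.1, 80.5 and 78.0 CPM) was close to them, above Syce2 at 0 ng/ml and above Mnd1 at 5 and 50 ng/ml.

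Markers of primordial germ cells were lower in both libraries with FGF4. All 8 had lower levels at 50 than at 0 ng/ml, and 3 were at least 2-fold lower, where 5.99% of all measured genes were. They were Prdm14 at 2.25 against 12.4 CPM, Dppa3 at 34.1 against 84.2 CPM and Kit at 22.3 against 92.4 CPM. All 3 are also known in naive embryonic stem cells, and Nanos3 and Dnd1 stand in both this list and the panel. The summed level of the 8 was 553.7, 303.7 and 286.0 CPM at 0, 5 and 50 ng/ml, and their part in the level of Dazl was not tested.

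A list of 29 genes of DNA methylation and silencing, with Tet1 and Tet2 among them, was measured in full. Dnmt3b, a de novo DNA methyltransferase, was 3.28-fold higher at 50 than at 0 ng/ml (185.8 against 56.7 CPM), and its cofactor Dnmt3l was 12.5-fold higher (170.4 against 13.6 CPM). These were 2 of 29, where 3.86% of all measured genes were higher, and none was lower, where 5.99% of all were. Both also passed for 5 against 0 ng/ml, where 3.29% of all were higher, and 0 passed for 50 against 5 ng/ml. Three-dose levels of E2f6, Mga and Max, the motif-binding subunits named above, were less far apart. E2f6 had 14.6, 16.0 and 15.4 CPM, Mga had 147.8, 173.2 and 168.7 CPM and Max had 45.3, 47.3 and 47.8 CPM. Tfdp1, also on this list, had 64.4, 96.0 and 94.5 CPM. It was 1.47-fold higher at 50 and 1.49-fold higher at 5 than at 0 ng/ml, under the 2-fold limit. The de novo methyltransferase Dnmt3a had 47.9, 81.7 and 93.5 CPM and stayed just under it, at 1.95-fold higher for 50 against 0 ng/ml (1.86 to 2.05). For that comparison 18 of the 29 genes had ratios above 1 and 11 had ratios below 1, among them Wdr5 at 74.3 against 116.3 CPM. Pcgf6 had 75.9, 79.2 and 81.3 CPM, and L3mbtl2 had 61.7, 69.6 and 68.4 CPM. The genes of this list with the highest levels were the corepressor Trim28 (613.5, 642.7 and 609.3 CPM), the chromatin remodeller Hells (419.3, 434.4 and 428.6 CPM) and the heterochromatin gene Cbx3 (256.4, 358.8 and 273.5 CPM).

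To read presence among cells at 1 depth, UMIs were drawn at random down to 40000 per cell (thinning), which left 360, 706 and 793 cells and set aside 13, 168 and 182 shallower ones. Most cells carried some germline transcript: 93.6%, 96.9% and 95.8% had a UMI of at least 1 of the 10 genes. Without thinning, over all 373, 874 and 975 cells, these shares were 97.1%, 86.8% and 87.8%. The unthinned shares cover different cells, because the shallower ones are then included. No cell type that should lack these genes was present, so the level of free RNA could not be read from one. Of the blood, liver, pancreas and heart genes, Myh6, a heart muscle myosin, reached 2.11, 3.26 and 3.35 CPM, close to Taf7l.

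A Sycp3 UMI was found in 75.0%, 80.03% and 77.05% of cells at 0, 5 and 50 ng/ml, and a Hormad1 UMI in 34.4%, 40.9% and 41.2%. Dazl was found in 31.1% of cells at 0 ng/ml (26.4% to 36.2%), 21.8% at 5 ng/ml (18.8% to 25.04%) and 22.2% at 50 ng/ml (19.3% to 25.3%). Mael was found in 13.6% (10.2% to 17.6%), 24.9% (21.8% to 28.3%) and 23.8% (20.9% to 26.96%). At 0 ng/ml the share of Dazl was above, and that of Mael below, the shares at both other doses, as their levels were. Shares and levels come from the same UMIs, so this likeness is not separate evidence. The intervals at 0 ng/ml were clear of those at both other doses, but they cover counting error within each library only. Cells of a library are not replicates of a dose, so these intervals do not test a difference between doses.

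Stk31 was found in 22.8%, 22.2% and 23.7% of cells, Ddx4 in 15.6%, 17.1% and 19.5%, and Sycp1 in 15.3%, 12.0% and 9.96%. Taf7l was found in 8.06%, 8.22% and 9.84%, Slc25a31 in 7.50%, 9.07% and 7.94%, and Asz1 in 0.278%, 0.708% and 0.504%. Without thinning, and with the shallower cells included, Dazl was found in 52.3%, 32.7% and 32.8% of cells and Mael in 31.4%, 36.6% and 39.6%. Median depth over these cells was deepest at 0 ng/ml.

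At this depth Dazl, Sycp1, Hormad1 and Taf7l reached the limit of 1 used here for unevenness among cells. Unevenness was measured as the excess squared variation, which is the variance minus the mean, divided by the squared mean, of thinned UMIs over cells. It is 0 for counting error alone, and 1 means a spread between cells as large as the mean. Of the 9 genes with at least 0.05 thinned UMI per cell, 7 reached 1 at 0 ng/ml, where 11.8% of 11831 measured genes did. At 5 ng/ml 5 did, where 10.8% of 11727 did, and at 50 ng/ml 4 did, where 10.8% of 11694 did. The shares over all genes were not matched by level. At 0 ng/ml the median measured gene had 0.681 thinned UMI per cell. Dazl had 0.767 there, Hormad1 0.656, Sycp1 0.206 and Taf7l 0.111. The 4 genes named passed at all 3 doses at this depth. After thinning to 7000 UMIs only Dazl did, while at 0 ng/ml Hormad1 had an excess of 0.561, Sycp1 of -0.931 and Taf7l of -0.859, and at 5 ng/ml Hormad1 was just under 1.

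Dazl had an excess of 9.84, 4.32 and 3.59 at 0, 5 and 50 ng/ml, Sycp1 had 4.42, 4.57 and 3.93, and Hormad1 had 1.996, 1.63 and 1.69. Taf7l had 8.05, 9.66 and 3.14. The median over all measured genes was 0.126, 0.133 and 0.126. Sycp3, the most abundant of the genes, had 0.660, 0.553 and 0.682, and so by this measure was spread more evenly than these 4. Its values were still above 0, the value for counting error alone. Mael had 0.301, 0.524 and 0.987, Stk31 had 1.65, 1.07 and 0.449, Ddx4 had 1.59, 0.268 and 0.313 and Slc25a31 had 3.67, 0.976 and 0.731.

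Few cells set the highest of these values. Leaving out the cell with most UMIs of the gene gave Dazl 3.71 and Sycp1 1.16 at 0 ng/ml. A second random draw of the thinning gave Dazl 6.76 at 0 ng/ml and 5.63 at 50 ng/ml, and it gave Taf7l 16.5 and 18.1 at 0 and 5 ng/ml. It gave Sycp1 2.98 at 5 ng/ml and 2.20 at 50 ng/ml. No order of the doses can be read from these values.

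**Figure D4:**
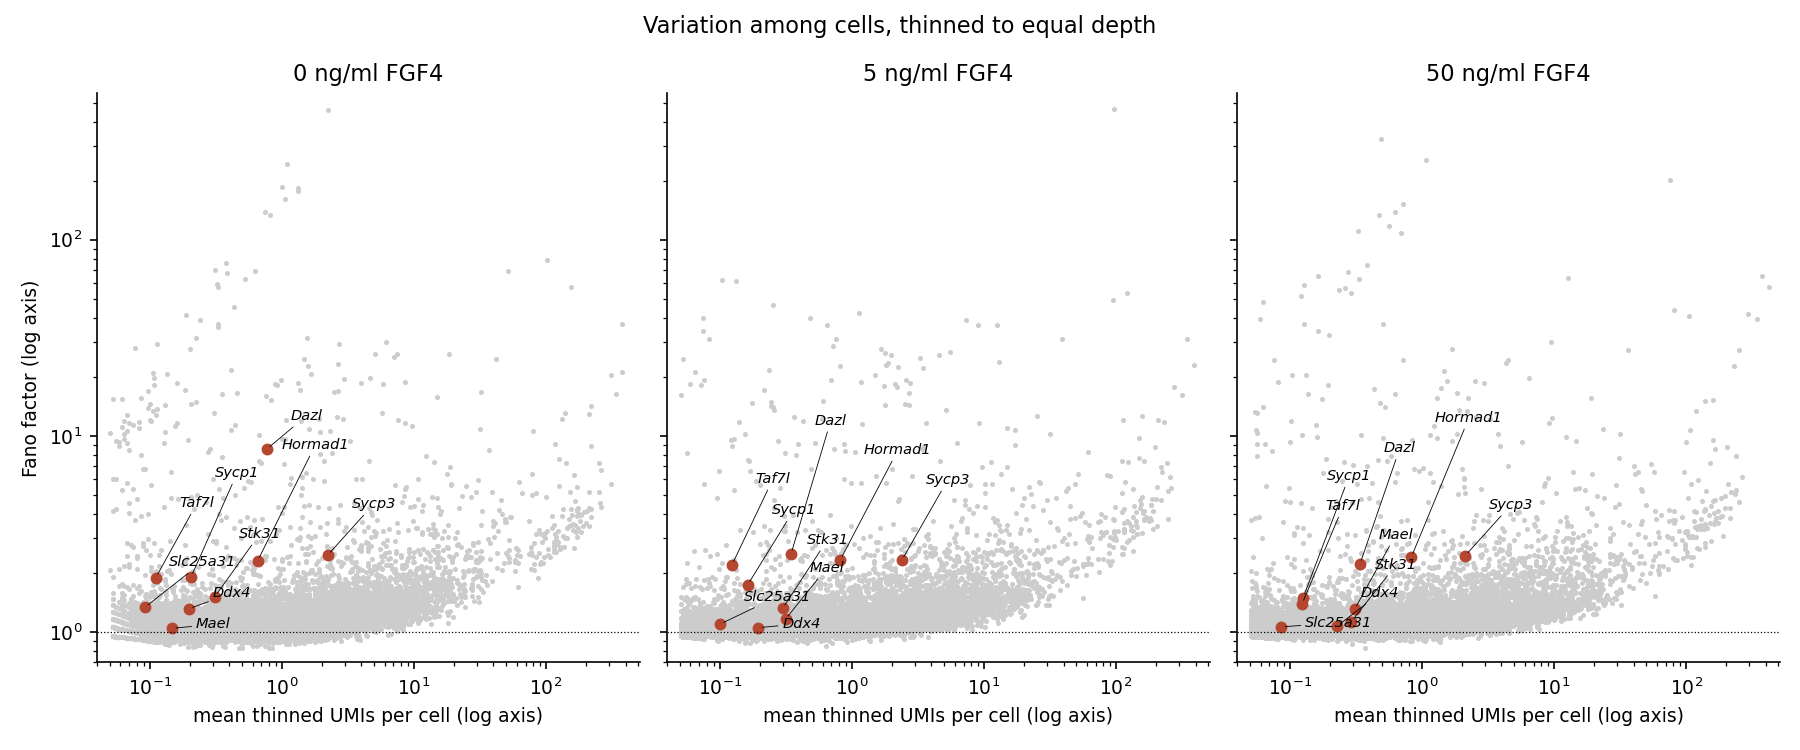
Fano factor (variance over mean of UMIs thinned to 40000 per cell, log axis) against the mean per cell (log axis) for all genes with at least 0.05 thinned UMI per cell (grey) and for 9 of the germline genes (red), with 1 panel per FGF4 dose. The dotted line at 1 is counting error alone, and Dazl at 0 ng/ml stands highest of the germline genes at 8.55.

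At least 5 thinned Dazl UMIs were found in 11 of 360 cells at 0 ng/ml (3.06%), 5 of 706 at 5 ng/ml (0.708%) and 4 of 793 at 50 ng/ml (0.504%).

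No thinned cell held all 10 genes. The mean number of them found in a thinned cell was 2.24 ± 1.33, 2.37 ± 1.27 and 2.36 ± 1.31 at the 3 doses in rising order (SD over 360, 706 and 793 cells). At least 4 were found in 17.2%, 18.7% and 18.4% of cells, and the most in any cell were 7, 8 and 9. Over the 45 pairs of genes the median Pearson correlation across cells was 0.06, 0.02 and 0.06, and the highest was 0.18 (Dazl with Sycp1, at 0 ng/ml). These describe sparse counts that share a library and a depth, and values this small are no finding.

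The closest genes outside the set were likewise only weakly alike. Among 8433 candidates with at least 0.2 thinned UMI per cell, the correlation averaged over the 3 libraries was highest with Hormad1 for Tuba3a, a testis tubulin (0.163), Rtkn (0.155) and Rnf17, a Tudor protein of germ cells (0.145). With Sycp3 it was highest for Ktn1 (0.125), Dusp1 (0.101) and Acadl (0.101). With the sum of the 10 genes it was highest for Rnf17 (0.164), Fkbp6, a co-chaperone of the piRNA pathway (0.160), and Sord (0.145). Tuba3a, Rnf17 and Fkbp6 belong to the panel of germline genes.

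In each library 1 cell was the highest for more than 1 of the genes, and these 3 cells were singled out after their values were seen. At 0 ng/ml a cell of 96087 UMIs held 80 Dazl, 13 Sycp1, 13 Hormad1 and 8 Sycp3 UMIs. It also held 14 UMIs of Smc1b, a meiotic cohesin subunit, 27.2 times the level of the other cells, and no Zscan4 UMI. At 5 ng/ml a cell of 159390 UMIs held 44 Dazl, 32 Taf7l, 20 Hormad1, 14 Sycp3 and 9 Sycp1 UMIs, with 9 of the 10 genes present. That cell held 90 UMIs of Ddit3 and 491 of Hspa5, both genes of the endoplasmic reticulum stress response, at 71.8 and 10.8 times the level of the other cells.

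At 50 ng/ml a cell of 77261 UMIs held 25 Dazl, 8 Hormad1, 7 Sycp1 and 2 Asz1 UMIs, again with 9 of the 10 genes present. It held 653 Zscan4 UMIs. Spermatid markers were at 0 UMIs in all 3 cells, and Pou5f1, a pluripotency factor, was present with 12, 33 and 10 UMIs.

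Zscan4 genes mark a rare, passing state of embryonic stem cells that resembles the 2-cell embryo. Cells with at least 10 UMIs of the 5 Zscan4 genes in the tables numbered 4, 3 and 10 at 0, 5 and 50 ng/ml. The 10 germline genes summed to 275 CPM in these cells and to 109 CPM in the other cells at 0 ng/ml, to 132 and 117 CPM at 5 ng/ml, and to 248 and 109 CPM at 50 ng/ml. The intervals were apart at 0 ng/ml (223 to 336 against 106 to 112 CPM) and at 50 ng/ml (214 to 286 against 107 to 111 CPM). They overlapped at 5 ng/ml (92.1 to 184 against 115 to 120 CPM).

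Dazl had 90.7 CPM in Zscan4 cells against 15.6 CPM in other cells at 0 ng/ml, 26.5 against 8.84 CPM at 5 ng/ml and 69.3 against 8.01 CPM at 50 ng/ml. Of the 52 Dazl UMIs in Zscan4 cells at 50 ng/ml, 25 came from the cell of 77261 UMIs described above. Without the Zscan4 cell with most Dazl UMIs in each library, a setting chosen after seeing the data, Dazl had 56.3, 17.8 and 40.1 CPM in Zscan4 cells at 0, 5 and 50 ng/ml. At 5 ng/ml its interval was then 4.84 to 45.5 CPM and included the level of the other cells, and at 0 and 50 ng/ml it lay above that level. Mael had 14.2 against 3.75 CPM, 22.7 against 7.18 CPM and 21.3 against 8.13 CPM, from 5, 6 and 16 UMIs in Zscan4 cells. Hormad1 was higher in Zscan4 cells at 50 ng/ml, with 48.0 against 20.4 CPM. It had 11.3 against 15.9 CPM at 0 ng/ml and 15.1 against 21.2 CPM at 5 ng/ml, from 4 UMIs in Zscan4 cells each time. Those intervals, 3.09 to 29.0 and 4.12 to 38.7 CPM, included the level of the other cells and left the direction undetermined. Taf7l had 11.3 against 1.94 CPM at 0 ng/ml and 16.0 against 2.79 CPM at 50 ng/ml, from 4 and 12 UMIs in Zscan4 cells. It had no UMI in the 3 Zscan4 cells at 5 ng/ml. Sycp3 did not share the direction at all doses, with 96.4 against 54.0 CPM at 0 ng/ml, 26.5 against 58.4 CPM at 5 ng/ml and 35.996 against 51.6 CPM at 50 ng/ml. Its value in Zscan4 cells at 5 ng/ml came from 7 UMIs, and at 50 ng/ml its interval, 23.7 to 52.4 CPM, included the level of the other cells.

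The summed levels in Zscan4 cells rest on 97, 35 and 186 UMIs of the 10 genes. Leaving out all Zscan4 cells gave a log2 ratio for 50 against 0 ng/ml of 1.12 for Mael and -0.96 for Dazl. Zscan4 cells held 32 of 694 Dazl UMIs at 0 ng/ml and 52 of 698 at 50 ng/ml. For Mael they held 5 of 164 and 16 of 672 UMIs, so leaving them out could move these ratios only a little. Their part in the differences between doses was not tested.

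**Figure D5:**
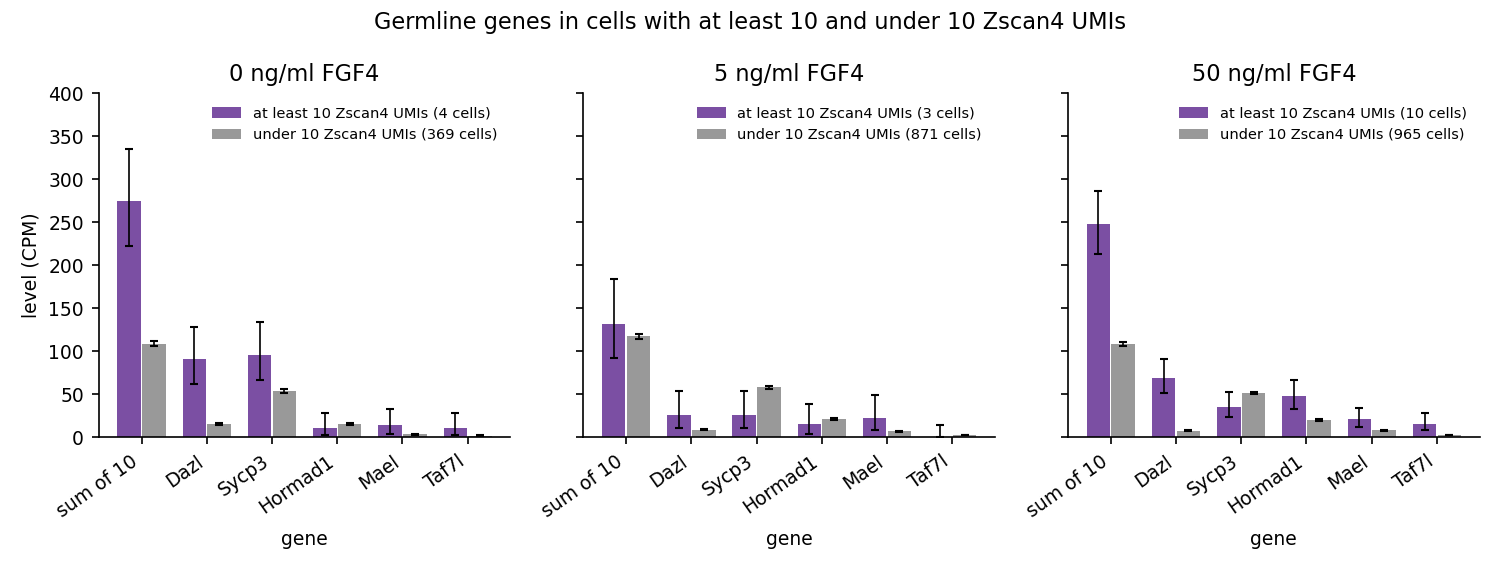
Level (CPM) of the sum of the 10 germline genes and of 5 of them in cells with at least 10 Zscan4 UMIs (purple) and in the other cells (grey), with 1 panel per FGF4 dose and 95% Poisson intervals as bars. The summed level is 275 against 109 CPM at 0 ng/ml and 248 against 109 CPM at 50 ng/ml, from 4 and 10 Zscan4 cells.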

How the data were processed

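The deposited tables held UMI counts per gene and cell barcode, as whole numbers made by the authors with Cell Ranger 4.0.0 per the file headers, and aligned to mm10 per the submitters' processing notes. Neither the annotation release, the calling of cell barcodes, the strand setting nor the enzyme that detached each library's cells (trypsin or Accutase) is given in the sources used here.

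From these counts UMIs were summed over all barcodes of a library and scaled to its total as CPM. Levels carried exact Poisson intervals, ratios conditional binomial intervals and shares exact binomial (Clopper-Pearson) intervals, all at 95% and for counting error only. A gene was counted as apart at 2-fold with an interval excluding 1 and at least 1 CPM in the higher library. The limit that a count of 0 allows was 3 UMIs per library, or 0.0702, 0.0399 and 0.0369 CPM. Variation among cells was read after random thinning to 40000 UMIs, correlations after log2 with a pseudocount of 1, and the most alike genes by the mean Pearson correlation over the libraries. All 10 genes were named. Of the germline panel, the silencing genes and the widely used relatives, those at least 2-fold apart and the 3 with the highest level were named. Marker lists were read by their sums and leading genes. Scrublet in scanpy 1.11.5 called 12, 7 and 26 doublets, which stayed in and were left out in an alternative. TMM factors came from edgeR 4.0.16, used for scaling only. Gene positions came from GENCODE M21 (GRCm38) and promoters from RefSeq (GRCm38.p6). Interval coverage was tested on simulated data. The 10 genes and all lists were chosen with earlier results of these data known. Alternatives changed the scaling, the cells kept, the limits, the depth and seed of thinning and the Zscan4 limit. Leaving out the cell with most Zscan4 UMIs, or the Zscan4 cell with most Dazl UMIs, was added after seeing the data.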

Additional observations from a re-analysis of the deposited data

How the results depend on the processing

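No paired analysis was possible because each dose was 1 library and no test was made. Under TMM, median-of-ratios and mitochondria- and ribosome-free scaling, the cell filter, doublet removal and the removal of Zscan4 cells or of each gene's highest cell, every log2 ratio of the 10 genes stayed within its counting interval, and those that changed sign had intervals that included 0. With every cell weighted equally, 20 of 30 stayed, 8 moved and 2 reversed (Ddx4 for 50 against 0 ng/ml at -0.015, Sycp3 for 5 against 0 ng/ml at -0.051). The ratio of the sums was then -0.17 for 50 against 0 and -0.10, reversed, for 5 against 0 ng/ml. Beside these, the median log2 ratio over all measured genes was -0.099 for 50 against 0 and -0.050 for 5 against 0 ng/ml. The genes apart by 2-fold were then 0 higher and 1 lower for 50 against 0 ng/ml and 1 lower for 5 against 0 ng/ml. A minimum of 20 CPM left 0 higher for 50 against 0 ng/ml. A limit of 1.5-fold gave 1 lower for 50 against 0 ng/ml, and 1 higher and 1 lower for 5 against 0 ng/ml. In the panel that limit gave 8 higher for 50 against 0, 7 higher and 3 lower for 5 against 0 and 1 lower for 50 against 5 ng/ml, and a minimum of 5 CPM gave 1 higher in each comparison with 0 ng/ml. The share of cells with any of the genes was 80.4%, 82.9% and 81.9% at 0, 5 and 50 ng/ml after thinning to 20000 UMIs and 52.6%, 47.5% and 48.0% at 7000 UMIs. It was 97.1%, 86.8% and 87.8% without thinning, over all cells with the shallower ones included. Under a second seed it was 95.2% and 93.7% at 5 and 50 ng/ml. At least 4 genes were found in 5.51%, 4.66% and 4.65% of cells at 20000 UMIs. At 7000 UMIs Slc25a31 held no UMI at 0 ng/ml and so gave no value, 1 gene was uneven at 0 ng/ml and 3 were at 5 ng/ml. Shallower thinning leaves fewer UMIs and sets aside only cells below its own depth, so the cells compared also differ. The cause of the other shifts was not tested. In cells with at least 30 Zscan4 UMIs the sum was 185 CPM at 0 ng/ml, and without the cell with most Zscan4 UMIs it was 298 CPM at 50 ng/ml. Without the Zscan4 cell with most Dazl UMIs it was 198 CPM at 50 ng/ml. Depth limits Asz1 most, and 1 library per dose limits every comparison.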

Other observations

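Barcodes with over 10% mitochondrial UMIs were shallow, with a median of 9087.5, 8338 and 8219 UMIs at 0, 5 and 50 ng/ml. The 10 germline genes summed to 63.7 CPM in them against 111 CPM in the other barcodes at 0 ng/ml, to 76.6 against 118 CPM at 5 ng/ml, and to 80.4 against 111 CPM at 50 ng/ml. In the cell with most Dazl UMIs at 0 ng/ml, Alox8, a lipoxygenase gene, had 62 UMIs, 237 times the level of the other cells, and Bnip3, a mitophagy receptor gene induced by low oxygen, had 41 UMIs, 11.7 times that level. In the cell with most Dazl UMIs at 5 ng/ml, Derl3 and Herpud1, which serve the degradation of proteins from the endoplasmic reticulum, had 17 and 26 UMIs, 64.0 and 14.1 times the level of the other cells, and Meioc, a meiotic gene, had 9 UMIs, 16.3 times that level. Each of these is a value from 1 cell, chosen after it was seen.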
